A study of Mus musculus with 6 samples.

Results

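The 36 genes described here encode the enzymes and carriers that take glucose carbon through glycolysis, back out through glucose-6-phosphatase, into mitochondria as pyruvate, or into the pentose phosphate pathway. They were taken by name from the 24421 rows of the deposited expression table, and all 36 had a row. The libraries were made from islet β cells of mice at 7 weeks of age, sorted by fluorescence after tamoxifen treatment, with 3 libraries in each group. Mice of the control group had the genotype MIP-CreERT;Brg1f/+;Brm+/-;R26LSL-tdTomato/+. Mice of the βDKO group were MIP-CreERT; Brg1f/f; Brm-/- with the same reporter allele. Both groups therefore shared the insulin-promoter-driven CreERT transgene, tamoxifen, the Cre-activated tdTomato reporter and a mixed C57BL/6J and 129SV background. The controls were heterozygous for both genes and not wild type, and Brm was missing from every cell of the βDKO animals and not from β cells alone. Brg1 (Smarca4) and Brm (Smarca2) are the alternative ATPase subunits of the Swi/Snf complex, which moves nucleosomes, and the question was which β cell transcripts depend on it. The labels do not say whether each sample came from a separate animal or from a pool, so the p-values reflect the spread among these libraries, part of which may be technical.

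Values are given in TPM, a transcript abundance in which each gene's reads are divided by its length and each library is scaled to the same total. Whole reads recovered from the low values gave 25388872 to 31282056 reads a library. Ins1 and Ins2 held 42.6 to 48.3% of TPM in the controls and 6.37 to 8.93% in βDKO, so the remaining transcripts share a larger part of the total in βDKO. Each result is therefore given on TPM and on rescaled TPM, divided by size factors (0.639 to 0.804 in controls, 1.33 to 1.37 in βDKO) that set the typical gene near no change. The median log2 difference over the 10404 genes tested was 0.83 on TPM and 0.03 after rescaling. The words rose and fell are kept for genes that limma called in the same direction on both scales at an adjusted p of 0.05. Over whole genes, Smarca4 averaged 11.6 ± 2.35 TPM in the controls against 10.8 ± 0.496 TPM in βDKO, and Smarca2 averaged 22.7 ± 7.503 against 23.6 ± 1.33 TPM (SD, n = 3 each). Both were lower after rescaling only, by 0.86 and 0.71 on the log2 scale. These whole-gene values include exons outside a deletion and check the genotype labels only in part.

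Glycolysis splits a hexose into a pair of trioses and ends at pyruvate, and the pentose phosphate pathway branches off at glucose-6-phosphate to make NADPH and ribose. In β cells the rate of glycolysis sets the ATP signal that closes potassium channels and releases insulin, so pyruvate is normally passed to mitochondria and little is turned into lactate. G6pc2, an islet-enriched glucose-6-phosphatase subunit, runs against that flow by returning glucose-6-phosphate to glucose. Several steps are served by isozymes from different genes, which differ in their kinetics and in the tissues that use them.

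The start regions of the 4 members that changed most on the TPM scale are shown to give the sequence context of the changes, 250 bases before to 50 bases after an annotated start (RefSeq, GRCm38.p6, the same assembly as mm10). Each is written 5′ to 3′ on the strand of the gene. Capitals mark a match to the carbohydrate response element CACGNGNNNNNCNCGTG, the form of site that the glucose-responsive factor ChREBP is known to bind. The windows are chr3:89136373-89136672 on the plus strand for Pklr, chr2:69210823-69211122 on the plus strand for G6pc2, chr6:142507908-142508207 on the minus strand for Ldhb and chr6:124769624-124769923 on the minus strand for Eno2.
Pklr: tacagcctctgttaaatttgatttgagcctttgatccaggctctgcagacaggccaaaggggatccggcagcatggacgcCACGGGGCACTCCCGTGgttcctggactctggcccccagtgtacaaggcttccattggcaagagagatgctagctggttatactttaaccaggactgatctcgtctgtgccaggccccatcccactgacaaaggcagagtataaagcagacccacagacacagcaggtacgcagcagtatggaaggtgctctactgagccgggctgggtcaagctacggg
G6pc2: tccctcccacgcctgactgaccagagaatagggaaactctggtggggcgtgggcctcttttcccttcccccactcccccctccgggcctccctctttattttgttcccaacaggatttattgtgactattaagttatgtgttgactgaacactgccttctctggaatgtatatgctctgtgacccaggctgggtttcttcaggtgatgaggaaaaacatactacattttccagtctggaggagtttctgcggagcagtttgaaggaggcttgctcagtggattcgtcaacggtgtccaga
Ldhb: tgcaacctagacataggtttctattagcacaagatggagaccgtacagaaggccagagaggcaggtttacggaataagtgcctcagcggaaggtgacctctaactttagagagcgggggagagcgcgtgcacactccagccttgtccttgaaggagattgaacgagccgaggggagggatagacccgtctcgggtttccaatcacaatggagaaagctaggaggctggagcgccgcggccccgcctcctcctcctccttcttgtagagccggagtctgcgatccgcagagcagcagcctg
Eno2: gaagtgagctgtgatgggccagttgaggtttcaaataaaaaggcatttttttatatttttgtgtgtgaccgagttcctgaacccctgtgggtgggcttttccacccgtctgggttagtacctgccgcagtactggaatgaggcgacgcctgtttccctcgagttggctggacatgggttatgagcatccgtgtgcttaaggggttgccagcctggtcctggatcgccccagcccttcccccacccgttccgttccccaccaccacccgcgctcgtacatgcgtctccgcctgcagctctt

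The Pklr window, which belongs to the downstream of its annotated starts, held the element with its first base 170 bases before the start. It was the single member window of 55, and Pklr the single member of 36, with a match on either strand. Over all 32851 start windows searched, 15 (0.0457%) held one. None of the 4 windows printed held the E-box CACGTG, the hypoxia core ACGTG, the GC box GGGCGG, the homeodomain core TAATTA or the forkhead core TGTTTAC, searched on both strands. The GC box was in 54.5% of the member windows and 35.7% of all windows. The hypoxia core, which also lies inside the E-box, was in 34.5% and 19.6%. The E-box itself was in windows of 5 members, Pfkm among them at 136 bases before an annotated start, and in 7.15% of all windows. G6pc2 has a second annotated start, whose window chr2:69219699-69219998 held the hypoxia core 13 bases before the start. These are matches of letters and were not tested against the expression values.

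Of the 36 members, 29 reached 5 TPM in at least 3 libraries and were tested. On TPM 23 of the 29 were called, where 86% of all tested genes were, and after rescaling 18 were called, where 44.5% were. On TPM, 21 of the 29 were higher in βDKO (72.4%), where 81.4% of all tested genes were higher, and 2 (6.90%) were lower, against 4.61% of all tested genes. After rescaling, 6 were higher (20.7%) against 23.4% of all tested genes, and 12 were lower (41.4%) against 21.1%. The members' median log2 difference was 0.70 on TPM and −0.12 after rescaling. On both scales together, 6 members rose (Ldhb, Eno2, Pfkm, Aldoc, Tpi1 and Gapdh), where 23.4% of all tested genes did, and 2 fell (G6pc2 and Pklr), where 4.61% did. Counted by libraries alone, 21 members were higher and 2 lower on TPM with no overlap between groups, against 83.2% and 4.82% of all tested genes, and after rescaling 7 were higher and 13 lower, against 31% and 27%. Aldoc and Pklr passed the filter only through the group in which each is high, so their places in these counts rest partly on that filter. A further 10 were higher on TPM and not called after rescaling, a pattern shared by 51.7% of all tested genes. Another 5 (Gpi1, Pck2, Mpc1, Taldo1 and Tkt) were called higher on TPM yet lower once rescaled, as 6.28% of all tested genes were. G6pc3, Pfkfb2, Pfkfb4, Pkm and Pgd were not called on TPM and were lower after rescaling, and Fbp1 was called on neither scale. In a bulk library, fewer cells of a type and less RNA per cell cannot be told apart.

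**Figure D1:**
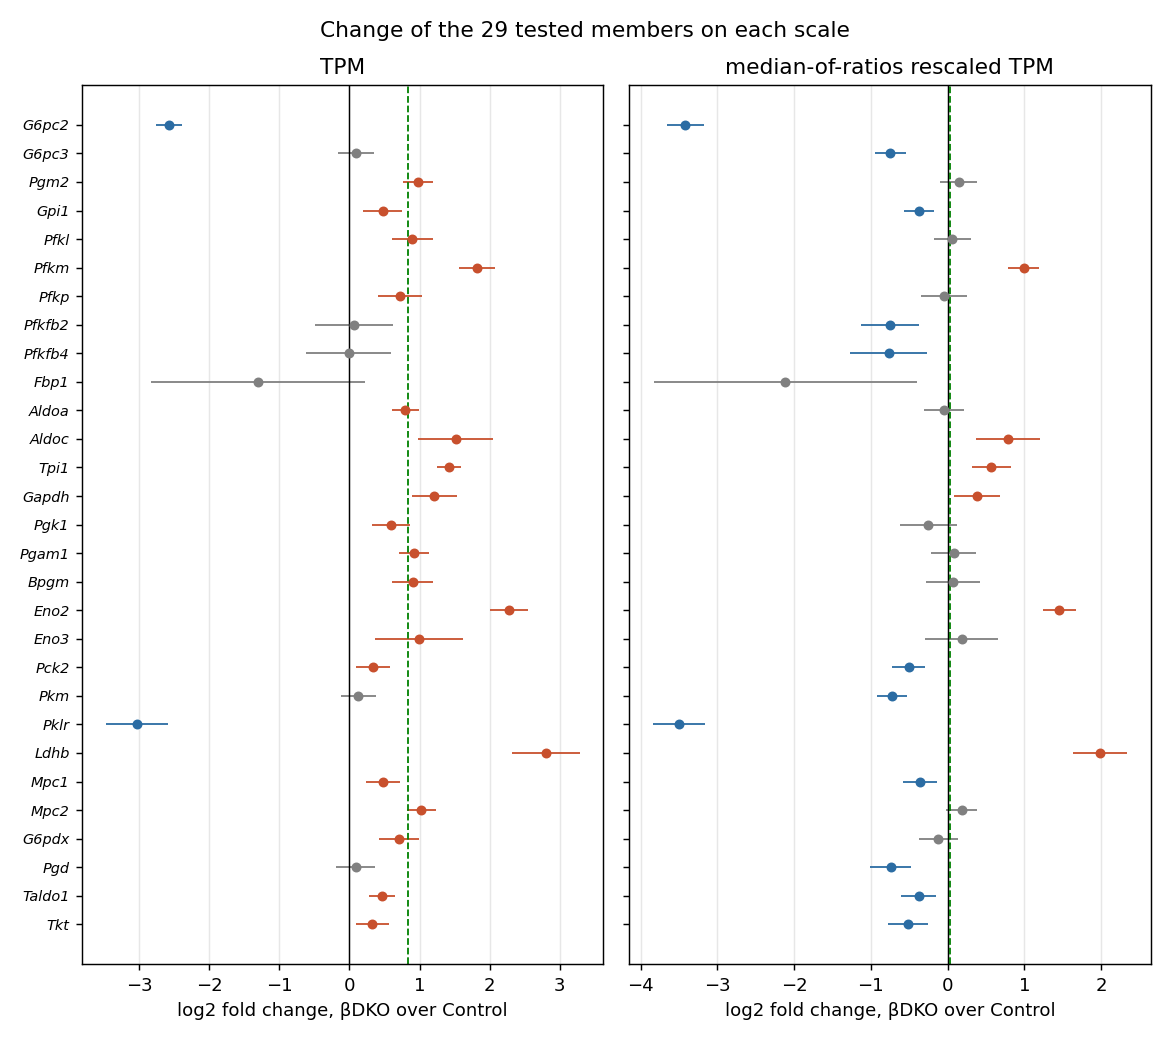
Log2 difference (βDKO minus control) of the 29 tested members on TPM and after rescaling, from limma on log2(value + 1), with 95% confidence intervals as whiskers, red for higher, blue for lower and grey for not called, and a dashed line at the median of all tested genes. The values run from −3.03 for Pklr to 2.80 for Ldhb on TPM and from −3.50 to 1.98 after rescaling, and most of the members between lie near the median of all genes.

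The summed level of the pathway differed by scale and by whether G6pc2 was counted. All 36 members added up to 2794, 3236 and 2994 TPM in controls 1 to 3 and 3210.1, 3220.4 and 3227 TPM in βDKO 1 to 3, so the groups overlapped. After rescaling the sum was 4373, 4032 and 3721 in controls and 2339.8, 2419 and 2430.5 in βDKO, a 1.69-fold lower mean with no overlap. As a percent of TPM outside Ins1 and Ins2 it was 0.544 ± 0.0179 against 0.347 ± 0.00621 (SD, n = 3), also lower and apart. Without G6pc2 the remaining members summed to 1709, 1999 and 1851 TPM in controls and 3019.7, 3034 and 3023 TPM in βDKO, a 1.63-fold higher mean with no overlap. Their rescaled sum went the other way, from 2675, 2491 and 2300.4 to 2201, 2279 and 2277, also with no overlap. As a percent of all TPM outside Ins1 and Ins2, the members without G6pc2 made up 0.331, 0.348 and 0.327% in controls and 0.323, 0.325 and 0.332% in βDKO, and these groups overlapped. G6pc2 alone thus held 38.4% of the members' mean TPM in controls and 6.01% in βDKO.

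**Figure D2:**
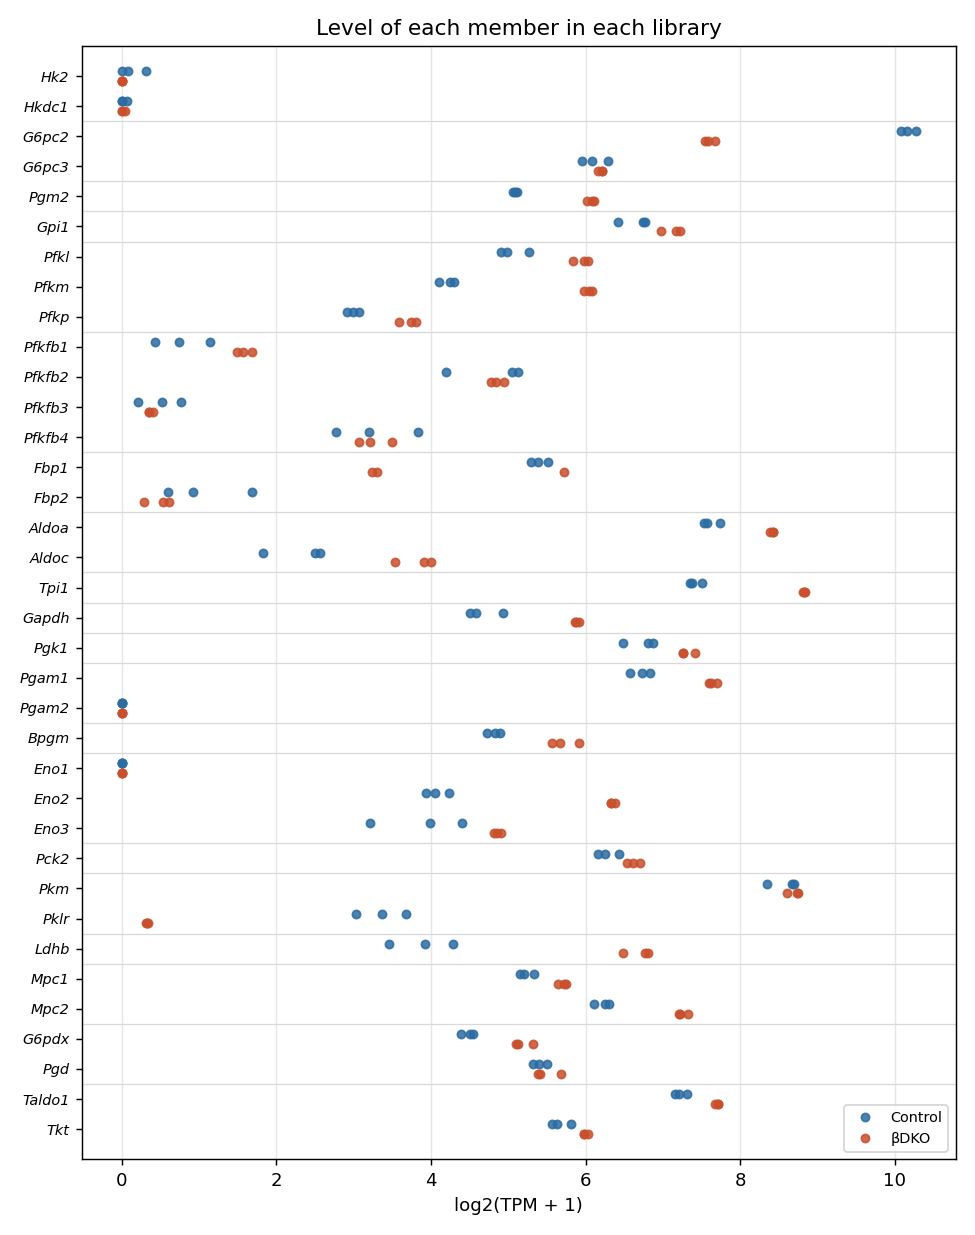
Level of each of the 36 members in each of the 6 libraries as log2(TPM + 1), 1 point per library, ordered by step of the pathway, with controls and βDKO in separate colours. G6pc2 and Pklr lie lower in all 3 βDKO libraries, Ldhb, Eno2, Pfkm, Tpi1, Aldoc and Gapdh lie higher in all 3, and Fbp1 has 1 βDKO library at the control level.

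Entry of glucose into the pathway was little covered by the members, since both hexokinases among them were almost unread. Hk2, an insulin-regulated hexokinase of muscle and fat, had 0, 1 and 5 recovered reads in controls 1 to 3 and 0 in each βDKO library. Hkdc1, a hexokinase-like protein, had 3, 0 and 0 reads in controls and 0, 0 and 1 in βDKO. Neither could be compared at this depth.

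Of the genes for the exit from glucose-6-phosphate, G6pc2 fell. G6pc2 (chromosome 2, 69211073 to 69227993, mm10) measured 1085, 1237 and 1143 TPM in the 3 controls against 190.4, 186 and 203 TPM in the 3 βDKO libraries. It had the highest TPM of the 36 members in every control library, and its lowest control lay above its highest βDKO value. The mean was 5.97-fold lower on TPM and 10.8-fold lower after rescaling, with log2 differences of −2.57 (SE 0.08, limma adjusted p = 5.79e-07) and −3.42 (SE 0.10, adjusted p = 8.08e-07). The other subunit gene, G6pc3, which is expressed in most tissues, was at 60.7, 77.1 and 66.7 TPM in controls and 73.4, 73.5 and 70.5 TPM in βDKO. These groups overlapped on TPM (log2 0.09, SE 0.11, limma adjusted p = 0.438), and G6pc3 was lower after rescaling (−0.75, SE 0.09, adjusted p = 3.69e-04). G6pc2 made up 94.7, 94.1 and 94.5% of the TPM of both genes in controls and 72.2, 71.7 and 74.3% in βDKO. This within-library share does not depend on how libraries are scaled, and the groups did not overlap. Slc37a4, the transporter that feeds glucose-6-phosphate to this enzyme, also fell, from 33.2 ± 4.98 to 15.4 ± 1.45 TPM (SD, n = 3), with log2 differences of −1.06 on TPM and −1.87 after rescaling.

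Of the genes named for enzymes that rearrange hexose phosphates, Pgm2, a phosphoglucomutase by name, was at 32.5 to 33.7 TPM in controls and 63.8 to 67.8 TPM in βDKO. The 2.002-fold higher mean was called on TPM (0.98, SE 0.10, limma adjusted p = 5.80e-05) but not after rescaling (0.15, adjusted p = 0.285), unless control 1 was left out (0.24, adjusted p = 0.0321). Gpi1, glucose-6-phosphate isomerase, was at 84.9, 106.5 and 107.8 TPM in controls and 148, 142 and 125 TPM in βDKO. Its groups were apart on TPM (0.47, SE 0.12, limma adjusted p = 0.00646), and after rescaling the direction turned (−0.37, SE 0.09, adjusted p = 0.00993).

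Phosphofructokinase makes the first committed step of glycolysis and is built from muscle (Pfkm), liver (Pfkl) and platelet (Pfkp) type subunits. Pfkm (chromosome 15, 98092589 to 98132447) was at 16.2, 18.04 and 18.7 TPM in controls and 67.0, 65.3 and 61.8 TPM in βDKO. Every βDKO library was above every control. The mean rose 3.67-fold on TPM and 2.03-fold after rescaling, with log2 differences of 1.82 (SE 0.11, limma adjusted p = 7.98e-06) and 0.99 (SE 0.09, adjusted p = 8.24e-05). Pfkl was at 29.1 to 37.4 TPM in controls and 56.1 to 64.4 TPM in βDKO, and Pfkp at 6.53 to 7.37 and 11.01 to 12.998 TPM. Both were higher on TPM, by 0.90 and 0.72 on the log2 scale (limma adjusted p = 3.50e-04 and 0.00140), and close to 0 after rescaling (0.06 and −0.05). Within a library, Pfkm was 31.1, 28.7 and 33.4% of the 3 genes' TPM in controls and 46.6, 46.4 and 48.0% in βDKO. Pfkl went from 55.7, 59.5 and 54.9% to 44.8, 44.3 and 43.5%, and Pfkp from 11.7 to 13.2% to 8.54 to 9.25%. None of the 3 shares overlapped between groups.

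The size of these shares rests on the gene lengths that the authors used, whereas their order between groups did not. The lengths that the deposited TPM imply, relative to merged GENCODE exons, ran from 0.137 times (Mpc2) to 6.25 times (Pfkfb3) over 31 members with at least 100 reads. Pfkm stood at 3.01 times and Pfkl at 0.656 times. With GENCODE lengths, Pfkm was 67.1, 64.6 and 69.4% of the subunits in controls and 79.8, 79.7 and 80.7% in βDKO, so which subunit is the most abundant in controls changes with the lengths. Levels of different genes in TPM are compared here with that limit. A gene's own length cancels in its fold difference between groups, but each library's TPM total rests on the lengths of all genes. Fold differences on TPM therefore depend on the lengths too, while the size factors remove the totals from rescaled values. With limma-voom on the recovered reads, not divided by length, the median log2 difference of all tested genes was 0.49, against 0.83 on TPM. Muscle genes were examined beside Pfkm, Eno3 and Pgam2. The 5 striated muscle markers summed to 4.16 to 6.404 TPM in controls and 11.4 to 12.2 TPM in βDKO, and 2 of them (Myh4 and Tnnt3) were listed at 0 in all libraries while Ckm did not exceed 0.271 TPM. Most of the sum was Mylpf, which was higher on TPM (3.86 ± 0.968 to 10.1 ± 0.831, SD, n = 3, log2 1.22, limma adjusted p = 4.81e-04) and not called after rescaling (0.48, adjusted p = 0.0994). Mylpf passed the filter only through the βDKO libraries, so its call rests partly on that filter. The part of these markers in the Pfkm result was not tested.

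The bifunctional enzymes Pfkfb1 to Pfkfb4 make and break the activator of phosphofructokinase. Pfkfb2, the main form in these libraries, was at 17.3, 34.0 and 32.0 TPM in controls and 29.8, 26.4 and 27.7 TPM in βDKO. Control 1 lay below all others and the groups overlapped (0.06, SE 0.24, limma adjusted p = 0.806). Pfkfb4 was at 5.85, 13.2 and 8.20 TPM in controls and 7.37, 10.2 and 8.28 TPM in βDKO, again overlapping. After rescaling limma put both lower, at −0.76 (adjusted p = 0.00714) and −0.77 (adjusted p = 0.0227). Without control 1, Pfkfb2 was called lower on TPM as well (−0.23, limma adjusted p = 0.0452), and Pfkfb4 lost its rescaled call without βDKO 1 or 3 (adjusted p = 0.0840 and 0.0648). Pfkfb1, at 0.350 to 1.20 TPM in controls and 1.82 to 2.20 TPM in βDKO, and Pfkfb3, below 1 TPM in every library, did not reach the level for a test. The shares of the 4 forms overlapped between groups, with Pfkfb2 at 70.4 to 77.6% in controls and 68.1 to 75.1% in βDKO.

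Fructose bisphosphatase runs against phosphofructokinase. Fbp1 (chromosome 13, 62864753 to 62888298) was at 40.7, 38.2 and 44.5 TPM in the controls, against 8.41, 8.89 and 51.6 TPM in βDKO libraries 1, 2 and 3. The third βDKO library was above every control on TPM while βDKO 1 and 2 were far below, so the groups overlapped there. After rescaling, the βDKO values (6.13, 6.67 and 38.8) all lay below the controls (63.7, 47.6 and 55.4). Fbp1 was called on neither scale (limma −1.31, SE 0.64 and adjusted p = 0.0919 for TPM, then −2.12, SE 0.69 and adjusted p = 0.0528 for rescaled values). Without βDKO 3 the log2 difference was −2.13 in TPM (limma adjusted p = 7.16e-05) and −2.91 in rescaled TPM (adjusted p = 3.56e-05). Of the gene's 15 fits under other settings, this one among them, 3 called it lower on TPM and 5 after rescaling. Recovered reads were 1007, 683 and 973 in controls and 133, 137 and 784 in βDKO, so counting error is small beside this gap. Fbp2, the muscle form, had 8 to 48 reads in controls and 3 to 7 in βDKO and was not tested.

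Of the aldolases, which cut the hexose, Aldoa is the common form and Aldoc the form typical of brain. Aldoa was at 184 to 212 TPM in controls and 333 to 344 TPM in βDKO, higher on TPM (0.80, limma adjusted p = 7.82e-05) and not called after rescaling (−0.05, adjusted p = 0.746). Aldoc (chromosome 11, 78323073 to 78327781) was at 2.56, 4.66 and 4.93 TPM in controls and 14.1, 14.9 and 10.6 TPM in βDKO. All βDKO libraries exceeded all controls. The mean rose 3.26-fold on TPM and 1.85-fold after rescaling (log2 1.52, SE 0.23, limma adjusted p = 4.88e-04, and 0.78, SE 0.18, adjusted p = 0.00941), but Aldoc passed the filter only through the βDKO libraries. With no filter on low values limma still called it higher (adjusted p = 0.00210 on TPM and 0.0221 after rescaling). Its share of both genes stayed small, at 1.33 to 2.61% in controls and 2.99 to 4.18% in βDKO.

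Triose phosphates are interconverted by Tpi1 and then oxidised by Gapdh, the step that makes NADH. Tpi1 (chromosome 6, 124810586 to 124814158) was at 165, 180.2 and 162 TPM in controls and 453, 450.3 and 459 TPM in βDKO. The groups lay far apart, and the mean rose 2.68-fold on TPM and 1.48-fold after rescaling (log2 1.42, SE 0.08, limma adjusted p = 4.70e-06, and 0.57, SE 0.11, adjusted p = 0.00414). Gapdh (chromosome 6, 125161852 to 125166467) was at 22.9, 29.6 and 21.6 TPM in controls and 57.8, 59.2 and 57.2 TPM in βDKO. Its groups did not overlap, and the mean was 2.35-fold higher on TPM and 1.30-fold higher after rescaling (log2 1.21, SE 0.14, limma adjusted p = 1.16e-04, and 0.38, SE 0.13, adjusted p = 0.0415). The rescaled call of Gapdh was the weakest of the 8. It was lost without control 3 (0.24, limma adjusted p = 0.0685) and without βDKO 1, 2 or 3 (adjusted p = 0.0936, 0.121 and 0.0862). Of the 50-base words in Gapdh's exons, 58.4% also occur in another annotated gene, so its reads may be divided with near-identical copies.

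The members of the next steps were called on TPM alone. Pgk1, which makes the first ATP, was at 88.7 to 116 TPM in controls and 152 to 170.1 TPM in βDKO, and Pgam1, phosphoglycerate mutase, at 94.7 to 113 and 192 to 206 TPM. Bpgm, known for making bisphosphoglycerate in red cells, was at 25.3 to 28.8 TPM in controls and 46.4 to 59.2 TPM in βDKO. All 3 were higher on TPM (log2 0.59, 0.92 and 0.90, limma adjusted p = 0.00197, 6.87e-05 and 3.41e-04) and none was called after rescaling (−0.25, 0.08 and 0.07), except Pgk1 when control 3 was left out (−0.43, adjusted p = 0.0282). Of the 6 erythroid markers 5, the globins among them, were listed at 0 in all libraries and the sixth did not exceed 0.0306 TPM. A listed 0 may come from how reads were counted, and the part of these markers in the Bpgm result was not tested. Pgk1 shares 68.0% and Pgam1 41.5% of their words with other genes, and Pgam2, the muscle mutase, was listed at 0 in all 6 libraries.

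Among the enolase genes, Eno2 showed a large rise. Eno2, the neuronal and neuroendocrine enolase (chromosome 6, 124760053 to 124769673), was at 14.3, 17.8 and 15.5 TPM in controls and 79.7, 79.6 and 82.4 TPM in βDKO. The groups did not overlap. The mean rose 5.07-fold on TPM and 2.82-fold after rescaling, with log2 differences of 2.28 (SE 0.12, limma adjusted p = 4.03e-06) and 1.45 (SE 0.09, adjusted p = 1.63e-05). Eno3, the muscle enolase, was at 8.29, 14.9 and 20.1 TPM in controls and 27.1, 28.9 and 27.9 TPM in βDKO. It was higher on TPM (0.99, limma adjusted p = 0.00881) but not called after rescaling (0.18, adjusted p = 0.497). Eno1, the common form, was listed at 0 in all 6 libraries, which may come from how reads were counted and was not tested, and 48.4% of its words also occur in Eno1b, a near-identical gene. Eno1b was at 10.7, 16.7 and 10.04 TPM in controls and 44.8, 45.7 and 21.3 TPM in βDKO, which gave 1.46 on TPM (limma adjusted p = 0.00263) and 0.65 after rescaling (adjusted p = 0.121). Eno2 made up 63.3, 54.5 and 43.6% of Eno1, Eno2 and Eno3 in controls and 74.6, 73.3 and 74.7% in βDKO. With Eno1b counted as well, its share was 43.0, 36.1 and 34.0% in controls and 52.6, 51.6 and 62.6% in βDKO, and neither version overlapped. Both shares leave out whatever Eno1 holds.

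**Figure D3:**
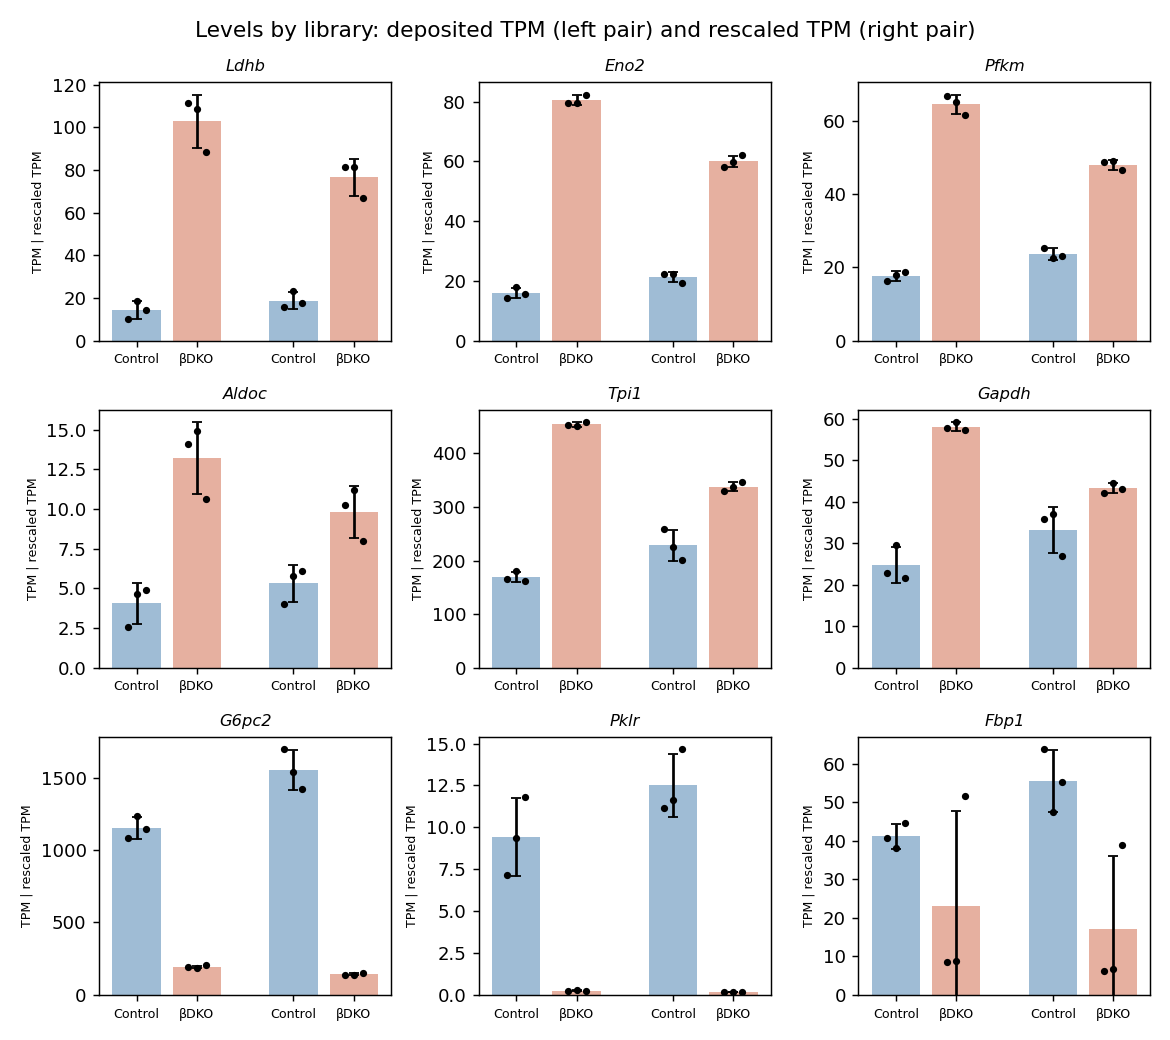
TPM (left pair of bars) and rescaled TPM (right pair) of the 8 members called on both scales and of Fbp1, with bars for the group mean, whiskers for the SD (n = 3, cut off at 0) and a point for each library. The groups are apart for all 8 called members, and for Fbp1 the library βDKO 3 lies at 51.6 TPM beside 8.41 and 8.89 TPM.

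Pyruvate kinase closes glycolysis, with Pkm as the general gene and Pklr as the liver and red cell gene, whose transcription is known to respond to glucose. Pklr (chromosome 3, 89136122 to 89146815) was at 7.13, 9.35 and 11.8 TPM in controls and 0.240, 0.264 and 0.250 TPM in βDKO. Recovered reads were 650.0, 616 and 950.0 in controls and 14, 15 and 14 in βDKO, with no overlap. The mean fell 37.5-fold on TPM and 66.7-fold after rescaling, with log2 differences on the log2(value + 1) scale of −3.03 (SE 0.19, limma adjusted p = 8.78e-06) and −3.50 (SE 0.15, adjusted p = 2.59e-06). Pklr passed the filter only through the 3 control libraries, and with no filter limma still called it lower (adjusted p = 1.05e-04 on TPM and 5.33e-05 after rescaling). Of its exonic bases, 22.0% overlap exons of Hcn3 on the opposite strand, whose reads cannot be told apart without strand. Pkm, which shares 23.7% of its words with other genes, was at 324, 408 and 412 TPM in controls and 425, 429.6 and 389 TPM in βDKO. It overlapped on TPM (0.13, SE 0.11, limma adjusted p = 0.296) and was lower after rescaling (−0.72, SE 0.09, adjusted p = 4.07e-04). Pklr was a small part of pyruvate kinase in both groups, at 2.15, 2.24 and 2.78% of the TPM of the pair in controls and 0.0565, 0.0614 and 0.0643% in βDKO. Pck2, the mitochondrial enzyme that makes phosphoenolpyruvate, was at 70.3, 85.4 and 74.9 TPM in controls and 103, 96.6 and 92.1 TPM in βDKO. It was higher on TPM (0.34, limma adjusted p = 0.0151) and lower after rescaling (−0.50, adjusted p = 0.00333), and the TPM call was lost without βDKO 1 (adjusted p = 0.0715).

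The largest rise among the members was at the fate of pyruvate. Ldhb (chromosome 6, 142490249 to 142507957), the lactate dehydrogenase subunit typical of heart, was at 9.99, 18.5 and 14.1 TPM in controls and 112, 108 and 88.5 TPM in βDKO. Its lowest βDKO value was several times its highest control value. The mean rose 7.25-fold on TPM and 4.08-fold after rescaling, with log2 differences of 2.80 (SE 0.21, limma adjusted p = 1.77e-05) and 1.98 (SE 0.15, adjusted p = 4.01e-05). Ldha, the other main subunit gene and known to be kept low in β cells, averaged 0.202 ± 0.117 TPM in the controls against 0.0315 ± 0.0546 TPM in βDKO (SD, n = 3), below the level for a test. Of the monocarboxylate carriers, Slc16a1 was at 0.0469 TPM on average in controls and 0.0146 TPM in βDKO and Slc16a3 was listed at 0, while their chaperones Bsg and Emb rose, from 262 to 1246 and from 313 to 1178 TPM. Of Ldhb's words, 20.99% also occur in the gene Gm5514.

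Pyruvate enters mitochondria through a carrier of 2 subunits. Mpc1 was at 34.5, 39.5 and 35.8 TPM in controls and 51.9, 52.8 and 49.0 TPM in βDKO, and Mpc2 at 68.2, 75.5 and 77.8 TPM and 149, 159 and 147 TPM. Neither overlapped on TPM, and both were higher there (0.48 and 1.03, limma adjusted p = 0.00310 and 3.81e-05). After rescaling, limma put Mpc1 lower (−0.36, SE 0.10, adjusted p = 0.0189) and Mpc2 was not called (0.18, adjusted p = 0.126). In limma the Mpc1 call was lost without βDKO 1, 2 or 3 (adjusted p = 0.0566 to 0.0784), and Mpc2 was called higher without control 1 (0.24, adjusted p = 0.0414). Mpc1 made up 33.6, 34.3 and 31.5% of the pair in controls and 25.9, 24.95 and 25.1% in βDKO. Exons of Mpc1 overlap an opposite-strand gene, 4930506C21Rik, over 23.1% of their bases.

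**Figure D4:**
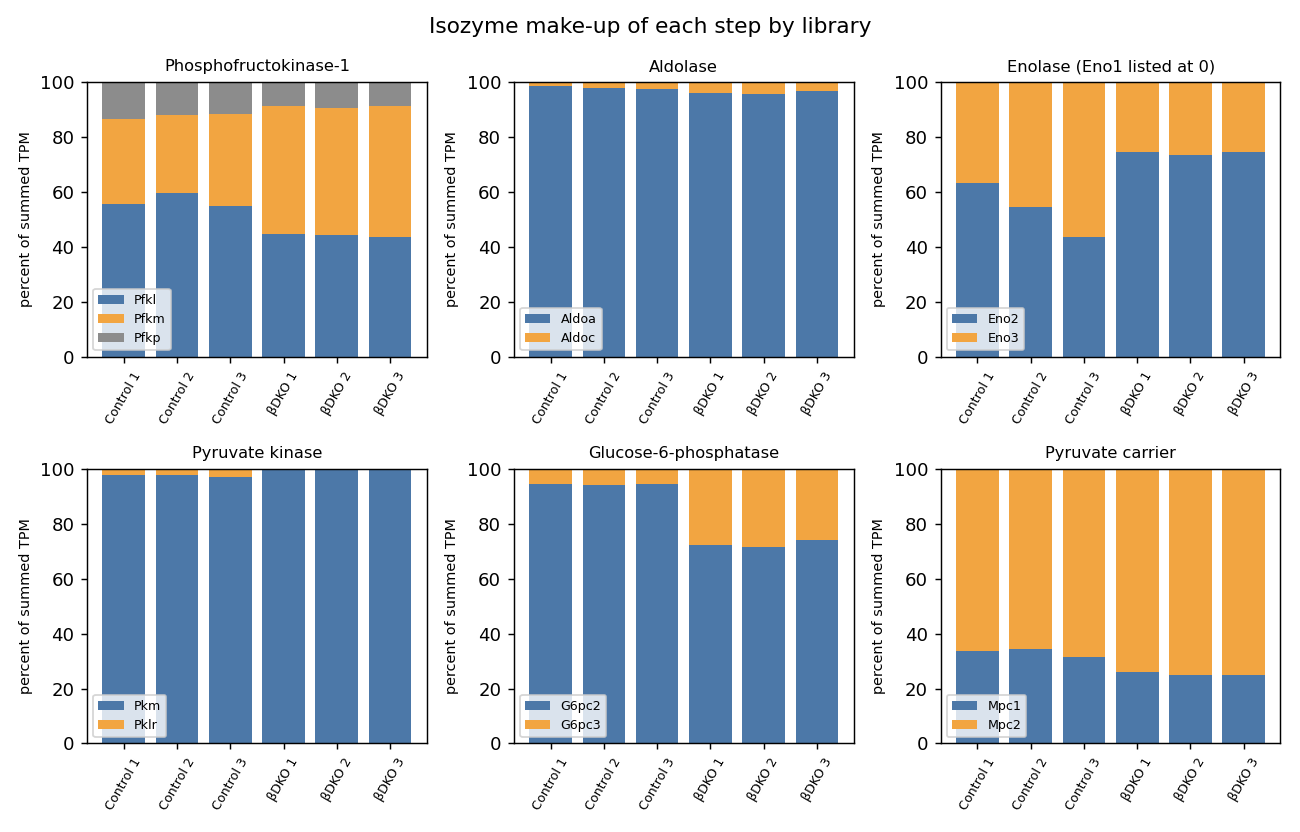
Share of each isozyme or subunit in the summed TPM of its step, in percent, as stacked bars for each of the 6 libraries and 6 steps. Pfkm and Eno2 take a larger share in all 3 βDKO libraries (Pfkm 46.4 to 48.0% against 28.7 to 33.4%), and G6pc2, Mpc1, Pfkl, Pfkp and Pklr take a smaller one.

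Over the 12 isozyme shares compared, 8 did not overlap between groups: Pfkl, Pfkm, Pfkp, Aldoc, Eno2, Pklr, G6pc2 and Mpc1. For each of these 8 a two-sided exact permutation test returned p = 0.1, which is the lower limit with 3 libraries a group, and 0.15 after Benjamini-Hochberg adjustment over the 12, so no share can pass 0.05 in this design. The 4 Pfkfb shares had exact p-values of 0.2 to 0.7. The shares are summed from the same libraries as the fold differences and are not separate evidence of them.

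All 4 pentose phosphate members had a log2 difference on TPM below the 0.83 of the typical gene. G6pdx, the enzyme that commits glucose-6-phosphate to the pathway, was at 20.0, 22.3 and 21.6 TPM in controls and 33.9, 33.1 and 39.0 TPM in βDKO. Its groups were apart on TPM (0.70, limma adjusted p = 9.51e-04) and it was not called after rescaling (−0.12, adjusted p = 0.405). Pgd, the second NADPH-making enzyme, was at 39.1, 44.1 and 41.0 TPM in controls and 41.7, 40.8 and 50.3 TPM in βDKO. It overlapped on TPM (0.09, limma adjusted p = 0.501) and was lower after rescaling (−0.74, SE 0.12, adjusted p = 0.00157). Taldo1 and Tkt, which return pentose carbon to glycolysis, were at 142 to 158 and 46.5 to 55.0 TPM in controls and at 203 to 209.5 and 61.9 to 64.3 TPM in βDKO. Both had higher TPM in βDKO (0.47 and 0.33, limma adjusted p = 8.18e-04 and 0.0168) and lower rescaled values (−0.38 and −0.51, adjusted p = 0.0159 and 0.00738), and the TPM call of Tkt was lost without control 3 or without βDKO 1, 2 or 3 (adjusted p = 0.0504 to 0.0563). The rescaled call of Taldo1 was lost in limma without βDKO 1 or 2 (adjusted p = 0.0815 and 0.0605). Together the 4 genes summed to 250 to 279 TPM in controls and to a higher 340 to 363 TPM in βDKO. Rescaled, the sum was lower in βDKO, at 319 to 391 in controls and 248 to 273 in βDKO. As a percent of TPM outside Ins1 and Ins2, the 4 genes summed to 0.0453 to 0.0487% in controls and 0.0363 to 0.0399% in βDKO. The groups did not overlap in any of these sums.

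Of the 16 other genes of glycolysis and the pentose phosphate pathway listed beside the members, 13 were tested. On both scales 1 rose, Ldhd, a mitochondrial D-lactate dehydrogenase, from 18.8 ± 1.60 to 68.2 ± 3.56 TPM (SD, n = 3), while Slc37a4 fell, as did Adpgk, an enzyme that phosphorylates glucose with ADP, which went from 25.2 ± 5.76 to 15.4 ± 3.26 TPM. Pgls, which follows G6pdx, was higher on TPM alone (44.3 to 71.0 TPM on average). After rescaling 9 of the 13 were lower, where 21.1% of all tested genes were. Hk1, Hk3 and Ldha did not reach the level for a test. The 12 genes of pyruvate dehydrogenase and its regulators had 10 tested, all higher on TPM (81.4% of all tested genes were), with a median of 0.82 on TPM and 0.00 after rescaling. Of these, Pdk3, a kinase that switches the complex off, and Pdp2, a phosphatase that switches it on, rose on both scales, from 12.8 to 31.8 and from 4.44 to 12.8 TPM. The control mean of Pdp2 was below the 5 TPM of the filter, so it needed βDKO libraries to pass and its call rests partly on that filter. In the glycerol phosphate and malate aspartate shuttles, 8 of 9 tested genes were higher on TPM, again beside 81.4% of all genes, and on both scales 1 rose (Slc25a12, the aspartate glutamate carrier, from 38.7 to 94.8 TPM) and 1 fell (Gpd1, from 39.4 to 30.7 TPM). In the list of 5 genes that draw serine from glycolysis, 3 were tested and Phgdh, the first enzyme, fell from 31.1 to 12.4 TPM. Of 12 hypoxia response genes 10 were tested, of which Bnip3 and Ankrd37 rose, from 92.5 to 417 and from 24.9 to 159.6 TPM, while Ddit4 and Vegfa fell, from 183 to 66.2 and from 42.3 to 15.1 TPM.

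Markers of other islet and pancreatic cells differed between the groups, and their part in the members' results was not tested. The 6 α cell markers summed to 2351 to 5072 TPM in controls and 556 to 846 TPM in βDKO, the 8 immune markers to 121 to 211 and 8.39 to 14.4 TPM, and the 3 PP and ε cell markers to 1592 to 4019 and 608 to 891 TPM. The δ cell sum was 2520 to 5002 TPM in controls and 1968 to 2541 TPM in βDKO, and the 4 ductal markers summed to 246 to 354 and 196 to 203 TPM. In these lists Sst and Krt7 fell and Hhex was lower after rescaling only, but Rbp4 rose, from 61.5 to 225 TPM on average. Cftr, not tested, averaged 2.67 TPM in controls and 5.11 TPM in βDKO. The 3 tested immune markers fell. Of these, Fcer1g and Cd79a lay below 5 TPM in every βDKO library. Their control values alone made both eligible for testing, so those falls depend in part on the 5 TPM cut. Most of the immune sum in controls was C1qa, at 131 TPM on average there and 5.79 TPM in βDKO. Cd68, not tested, averaged 3.45 and 3.75 TPM. The 8 acinar markers ranged from 13.4 to 484 TPM among controls and from 14.1 to 120.3 TPM in βDKO, with none of 6 tested called by limma on either scale. The 5 endothelial markers summed to 5.85 to 11.2 TPM in controls and 24.0 to 28.8 TPM in βDKO. Of these, Esam rose from 7.46 to 26.2 TPM on average, while the mean of each of the other 4 was lower in βDKO than in controls and under 1.1 TPM in both. The 4 stellate cell markers together did not exceed 1.29 TPM. Of the 8 β cell markers, 6 fell on both scales, where 4.61% of all tested genes did. Pdx1 and Nkx6-1 were higher on TPM (log2 0.34 and 0.42, limma adjusted p = 0.0156 and 0.0219). After rescaling both were lower (−0.51 and −0.43, limma adjusted p = 0.0170 and 0.0223).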

How the data were processed

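RNA-seq values of 3 control and 3 βDKO libraries of sorted β cells were analysed. The authors deposited 1 table of TPM, per the file headers, with 24421 rows. The submitters' processing notes name the mm10 build and the tools HISAT2, HTSeq, DESeq2, FastQC and Trimmomatic. Tool versions, tool roles, annotation, lengths of genes and strand setting were not given in the sources used here. All 6 columns matched a sample by title. The 36 members and the other lists were chosen with earlier results of these data known.

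Of the 24421 genes, 10404 reached 5 TPM in 3 or more libraries and were tested. The deposited TPM were taken to log2(TPM + 1) and tested with limma 3.58.1 in R 4.3.3 (trend, robust, two-sided, group as the single factor), with Benjamini-Hochberg adjustment over all genes tested at 0.05. The log2 scale with a pseudocount of 1 understates changes of low genes. The same fit was run on TPM divided by median-of-ratios size factors. Ratios given as fold are ratios of group means. Without an external standard, neither scale can be preferred from the table.

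Whole reads were recovered from the TPM steps for 16625 of 16625 rows above 0 in at least 2 libraries, to within 0.0001 of a read, although a divisor common to all libraries of a gene would go unseen. They served for depth, for a limma-voom alternative and for implied gene lengths. Isozyme shares are percents of the summed TPM of 1 step, compared by exact two-sided permutation tests in scipy 1.17.1. Words of 50 bases shared between genes and exon overlaps came from GENCODE M21, start windows from RefSeq. The fits were also run on simulated reads with known changes, and no outcome of that run is used here. Full values are given for members called on both scales or called in opposite directions by scale, ranges for most others, and for each other list its counts and up to 4 genes by smallest adjusted p. Fbp1 was given in full after its values were seen, as were all genes named beyond that rule. A result that this rule takes is not reported here, and its gene stays in the fits and counts.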

Additional observations from a re-analysis of the deposited data

How the results depend on the processing

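Of the 8 members called on both scales, 7 kept direction and call in each of their fits, and Gapdh lost its rescaled call in 7 of 15. Pklr had no fit without a control, and Aldoc none without a βDKO library or with βDKO 1 and 2 averaged, since each then missed the filter. Leaving the hormone transcripts out of TPM gave 4492 called genes in place of 8949 (2161 higher, 2331 lower) and 19 called members (6 higher, 13 lower). Under it these members turned on TPM: G6pc3 −0.78, Gpi1 −0.40, Pfkp −0.077, Pfkfb2 −0.80, Aldoa −0.081, Pgk1 −0.29, Pck2 −0.54, Pkm −0.76, Mpc1 −0.39, G6pdx −0.15, Pgd −0.78, Taldo1 −0.41 and Tkt −0.55 (log2). Of these, Pfkp, Aldoa, Pgk1 and G6pdx were not called there. With limma-voom on the recovered reads, G6pc3 −0.30, Pfkfb2 −0.33, Pck2 −0.056, Pkm −0.27, Pgd −0.31 and Tkt −0.067 turned. Of those, Pfkfb2, Pck2 and Tkt were not called in that fit (limma-voom adjusted p = 0.187, 0.604 and 0.558). In it 15 members were higher and 6 lower (60.1% and 8.3% of all genes). After rescaling, 8 values of 6 uncalled members crossed 0 when a library was left out, none larger than 0.054. Leaving out 1 library, Pfkfb2 ran from −0.23 to 0.23 on TPM, and the genes called after rescaling from 2718 (without βDKO 1) to 4830, against 4627. With βDKO 1 and βDKO 2, the closest pair, averaged, 2784 were called (1254 higher, 1530 lower). These counts come from fewer samples. A split by shared words and other gene lengths were added after seeing the data. Among the 17 tested members with under 10% shared words, 12 were higher and 1 lower on TPM (13 in all, 86% of all genes) and 4 higher and 6 lower after rescaling (10 in all, 44.5% of all genes). With GENCODE exon lengths the share differences (βDKO minus control, percentage points) became −10.3 for Pfkl, 13.04 for Pfkm, −2.70 for Pfkp, −3.96 for Pklr, −6.70 for G6pc2, −9.06 for Mpc1, 0.592 for Pfkfb1 and −0.761 for Pfkfb3, Pfkfb2 turned from −0.980 to 0.520, Pfkfb4 went from −1.45 to −0.352, and the same 8 shares did not overlap. Over all members' fits, 383 values on TPM and 395 after rescaling were unchanged in direction and call, 17 and 17 lost the call and 4 and 8 gained it.

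The replicate numbers were not shown to pair the samples. Same-numbered libraries had correlations of −0.0634, −0.0256 and 0.207, and number 3 alone correlated best with its own number. With the replicate block, 8838 genes were called on TPM and 4254 after rescaling, and 23 and 18 members. The share differences keep their values under the block by construction, with an exact sign-flip p of 0.25, the smallest that 3 pairs allow, for 9 shares and 0.75 for Pfkfb2, Pfkfb3 and Pfkfb4.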

Other observations

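Of 13 genes listed for glycogen, hexosamine and polyol metabolism, 10 were tested and all 10 were higher on TPM (81.4% of all tested genes were), with a median log2 difference of 1.23 on TPM and 0.43 after rescaling. On both scales 5 of the 10 rose (23.4% of all tested genes did), 1 was lower after rescaling and 4 were called on TPM alone. Gys1, glycogen synthase, went from 7.30 ± 1.45 to 29.1 ± 0.583 TPM (SD, n = 3 each). Pygb and Pygl, which break glycogen down, went from 8.17 ± 1.72 to 25.2 ± 1.11 and from 2.11 ± 0.298 to 10.2 ± 3.72 TPM. Pygl passed the filter only through the βDKO libraries, so its place in the counts rests partly on that filter. Sord, of the polyol route, went from 11.3 ± 1.70 to 37.1 ± 3.12 TPM, and Khk, which phosphorylates fructose, from 30.1 ± 9.28 to 102.9 ± 16.4 TPM. Gyg, the glycogen primer, was higher on TPM and lower after rescaling (0.33 and −0.50, limma adjusted p = 0.0368 and 0.0132). Akr1b3, the first polyol enzyme, was listed at 0 in all 6 libraries, as Eno1 and Pgam2 were.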
